A study of Mus musculus with 4 samples.

Results

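The genes described here encode the Wnt ligands, the Frizzled receptors, the co-receptors Lrp5 and Lrp6, the secreted antagonists of the Sfrp and Dkk families with Frzb and Wif1, and the intracellular proteins Axin2 and beta-catenin (Ctnnb1). They were chosen by gene symbol, as every gene named Wnt, Fzd, Sfrp or Dkk with a number and an optional letter, together with the 6 named genes Frzb, Wif1, Lrp5, Lrp6, Axin2 and Ctnnb1. This gave 43 of the 39179 genes in the count tables. Their levels were read in 2 libraries from lesional skin of Itch knockout mice (Itch KO) and 2 from skin of wild-type mice (WT), all of the C57BL/6 strain and all sequenced from total RNA. Itch is a ubiquitin ligase, and mice without it develop inflamed, itching skin. Every sample is labelled with inflammation as its phenotype, those of WT skin too. No label gives age, sex or body site, how the knockout was made, or whether replicates are different mice. The p-values therefore reflect the spread between libraries only.

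Wnt proteins are secreted, lipid-modified ligands that bind a Frizzled receptor together with Lrp5 or Lrp6. In the canonical branch this stops the destruction of beta-catenin, which then works with Tcf and Lef factors in the nucleus and raises feedback genes such as Axin2. In skin this signal is known for starting hair follicles and hair growth and for maintaining stem cells of the follicle and the epidermis, while Sfrp proteins, Frzb and Wif1 bind Wnt ligands outside the cell and most Dkk proteins block the Lrp co-receptors. Non-canonical ligands such as Wnt5a and Wnt11 act without beta-catenin, on cell polarity and movement.

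Promoter windows are shown for 4 members, picked after values were seen. The feedback gene Axin2, the ligand Wnt3 and the receptor Fzd7 were lower in both Itch KO libraries, and the antagonist Sfrp2 was higher. How many of these 4 hold a match does not stand for the members as a whole. Each window runs 5′ to 3′ on the strand of the gene, from 250 bases before to 50 bases after the start given by RefSeq (GRCm38.p6). Axin2 lies at chr11:108920099-108920398 on the plus strand, Wnt3 at chr11:103773925-103774224 on the plus strand, Fzd7 at chr1:59481897-59482196 on the plus strand and Sfrp2 at chr3:83766071-83766370 on the plus strand. Capitals mark a match to the core that Tcf and Lef factors recognise, searched on both strands as AACAAAG or ATCAAAG or TACAAAG or TTCAAAG.
Axin2: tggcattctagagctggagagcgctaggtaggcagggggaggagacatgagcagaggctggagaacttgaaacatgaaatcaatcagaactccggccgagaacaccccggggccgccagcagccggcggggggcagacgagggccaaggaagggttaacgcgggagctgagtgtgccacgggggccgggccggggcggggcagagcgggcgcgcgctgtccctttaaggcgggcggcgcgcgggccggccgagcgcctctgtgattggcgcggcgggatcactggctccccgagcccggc
Wnt3: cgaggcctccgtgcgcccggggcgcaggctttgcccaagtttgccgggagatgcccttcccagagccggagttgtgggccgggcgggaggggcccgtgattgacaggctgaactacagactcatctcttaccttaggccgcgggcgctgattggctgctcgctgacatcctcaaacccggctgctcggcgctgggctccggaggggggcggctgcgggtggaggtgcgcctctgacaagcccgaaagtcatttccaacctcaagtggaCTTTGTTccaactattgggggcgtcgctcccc
Fzd7: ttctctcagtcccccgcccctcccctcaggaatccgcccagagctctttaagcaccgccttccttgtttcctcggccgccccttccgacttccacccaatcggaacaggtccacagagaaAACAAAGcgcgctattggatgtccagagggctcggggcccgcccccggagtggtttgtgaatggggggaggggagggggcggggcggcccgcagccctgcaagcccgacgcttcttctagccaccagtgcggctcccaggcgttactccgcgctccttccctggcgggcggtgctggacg
Sfrp2: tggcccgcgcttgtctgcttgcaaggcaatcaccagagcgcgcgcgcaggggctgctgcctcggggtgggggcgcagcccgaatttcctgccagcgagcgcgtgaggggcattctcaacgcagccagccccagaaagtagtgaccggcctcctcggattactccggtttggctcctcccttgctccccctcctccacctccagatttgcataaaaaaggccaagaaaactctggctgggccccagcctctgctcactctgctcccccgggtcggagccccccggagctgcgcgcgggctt

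The Wnt3 window held AACAAAG on the opposite strand and the Fzd7 window held it on the strand of the gene, while the Axin2 and Sfrp2 windows held none of the 4 words. Of the 29 members with a window in the RefSeq table, 5 held a match in at least 1 window (Wnt3, Fzd7, Wnt11, Wnt5b and Dkk1), which is 17.2%, beside 18.9% of all 27025 genes with a window. A match describes letters only, and no binding was measured. The member windows were rich in CpG dinucleotides, with a median of 27 in a window, against 7 over all windows.

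Gene reads ran from 15881860 to 16008351 in the Itch KO libraries and from 15144957 to 15407932 in the WT libraries. Itch itself had 185 and 184 counts in the Itch KO libraries and 1450 and 1634 in the WT libraries, on the side of the labelled genotype in each. Xist stood at 0.947 and 0.892 CPM (counts scaled to library size, with TMM factors) in the Itch KO libraries and at 1055 and 631 CPM in the WT libraries, while 4 Y-linked genes summed to 176 and 153 CPM in the Itch KO libraries and to 0.267 and 0.316 CPM in the WT libraries. By these transcripts both Itch KO libraries came from males and both WT libraries from females, so genotype and sex cannot be told apart in any comparison. Only the Itch KO skin is described as lesional, so genotype and lesion cannot be told apart either. The 8 markers of basal and suprabasal keratinocytes, which define skin epithelium, were above 0 in every library. WT replicate 1 stood apart: 10 hair shaft genes summed to 2036 and 1399 CPM in the Itch KO libraries, against 5.40 CPM in WT replicate 1 and 779 CPM in WT replicate 2. The sums of 10 skeletal muscle genes were 1280.1 and 1082 CPM in the Itch KO libraries, against 16766 CPM in WT replicate 1 and 2765 CPM in WT replicate 2. Across tested genes the log2 levels of WT replicate 2 correlated more closely with both Itch KO libraries (Pearson r = 0.931 and 0.945) than with WT replicate 1 (r = 0.923), a comparison over genes, which are not independent replicates.

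In the Itch KO libraries the feedback gene Axin2, the ligands Wnt3, Wnt7b and Wnt16 and the receptors Fzd4, Fzd7 and Fzd10 stood lower than in the WT libraries, while the antagonists Sfrp1, Sfrp2 and Dkk3 and the ligand Wnt9a stood higher. These 11 are the members with an unadjusted p under 0.05, and none of them passed after adjustment. Of the 43 members, 36 had counts high enough to be tested and 7 did not (Wnt1, Wnt7a, Wnt8a, Wnt8b, Wnt9b, Dkk1 and Dkk4). None of the 36 passed an adjusted p of 0.05 in edgeR's quasi-likelihood test with Benjamini-Hochberg adjustment over all genes. Of all 16651 tested genes, 1 passed (0.00601%). Itch itself did not, at an adjusted p of 0.0509 in the same test, so missing this threshold does not show that a gene is unchanged. At an unadjusted p under 0.05, 4 members were higher in the Itch KO libraries, beside 12% of all tested genes, and 7 were lower, beside 10.9%. Together they made up 30.6% of the tested members, where 22.8% of all tested genes had an unadjusted p this low. DESeq2 called 8 of the 11 at its own adjusted p of 0.05, Sfrp2 and Dkk3 as higher and Axin2, Wnt3, Wnt7b, Wnt16, Fzd4 and Fzd10 as lower, where it called 7.83% of all tested genes as higher, 6.07% as lower and 13.9% in either direction. limma-voom called 0, with 9 members at an unadjusted p under 0.05. The share of all tested genes in limma-voom was not taken, so the 9 cannot be read as a result about the members. Here higher and lower describe the library values, with the test beside them.

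Both Itch KO libraries lay below both WT libraries for 17 of the 36 tested members, beside 30% of all tested genes, and above them for 5, beside 31.2%. The median log2 fold change of the tested members was -0.25, beside 0.01 over all tested genes. Members were tested only where at least 2 libraries, the size of a group, had enough counts. These counts therefore describe the tested members and not the families as a whole.

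The counts depended on single libraries. Without WT replicate 1, edgeR gave 3 members an adjusted p under 0.05, beside 7.55% of all tested genes. They were Axin2, Fzd10 and Wnt7b, all lower in the Itch KO libraries. Without WT replicate 2 it called 15, 5 higher and 10 lower, beside 31.5%. Both fits take their spread from the Itch KO libraries, with 1 WT library left. Members with an unadjusted p under 0.05 numbered 12 without WT replicate 1, beside 24.5% of all tested genes, and 21 without WT replicate 2, beside 45.1%. Without Itch KO replicate 1 the single such member was Axin2, beside 8.37%, and without Itch KO replicate 2 there were 4, Axin2, Fzd10, Dkk3 and Sfrp2, beside 8.78%. Axin2 had an unadjusted p under 0.05 in all 4 of these fits, and no other member did.

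**Figure D1:**
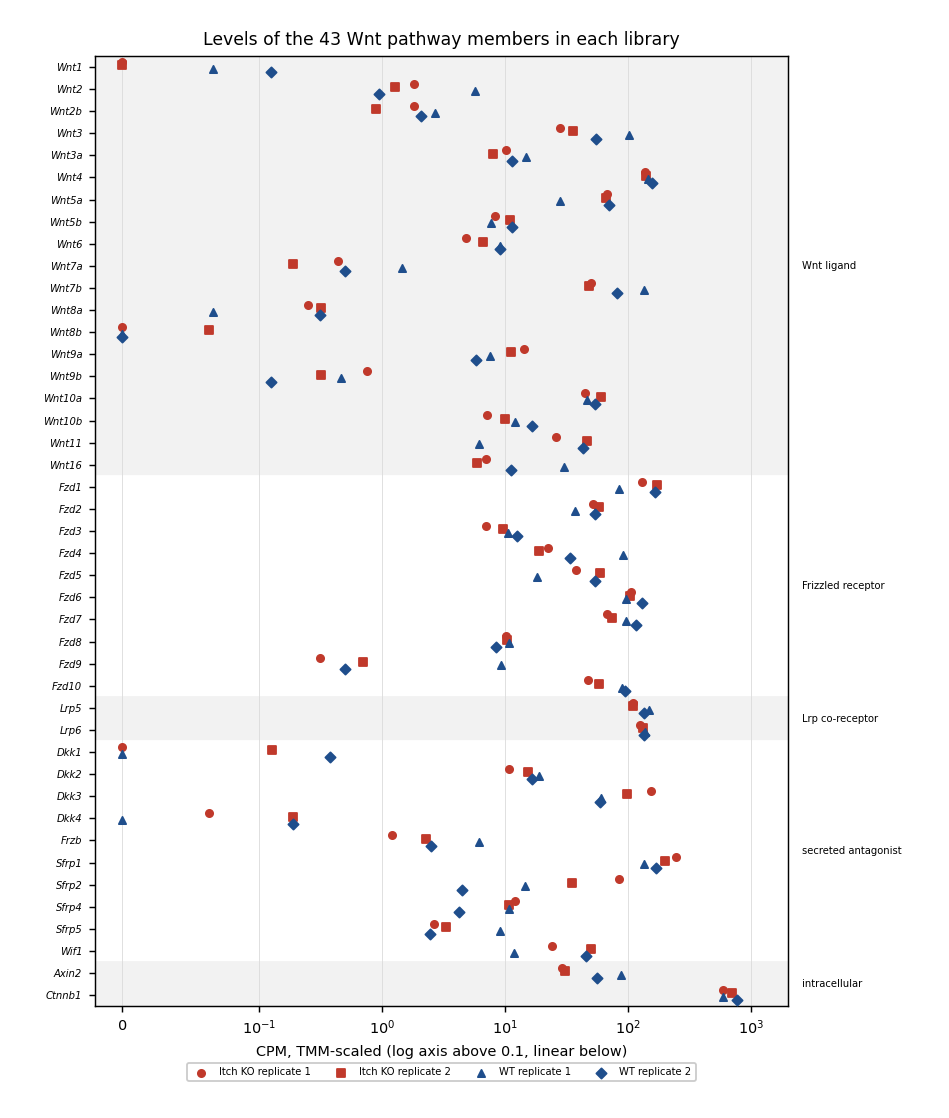
Level of each of the 43 members in each library, in CPM on an axis that is logarithmic above 0.1 and linear below, ordered by role. Red points are the Itch KO libraries and blue points the WT libraries; Axin2, Wnt3 and Wnt7b have both red points left of both blue points, and Sfrp2 and Dkk3 have both to the right.

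The ligands were led by Wnt4 when levels were set per kilobase of exon so that genes could be compared. Wnt4, a ligand known from kidney and epidermis, stood at 32.7 and 33.7 CPM per kilobase in the Itch KO libraries and 34.8 and 37.4 in the WT libraries. Wnt10a, which ectodermal appendages need, followed at 18.1 and 24.6 CPM per kilobase in the Itch KO libraries and 18.96 and 21.8 in the WT libraries, below Wnt4 in every library. Wnt3 averaged 18.0 CPM per kilobase over the 4 libraries, Wnt7b 16.1, Wnt5a 7.44 and Wnt11 7.37, and the library values of Wnt10a, Wnt3 and Wnt7b ran into each other, as did those of Wnt5a and Wnt11. The other tested ligands averaged between 0.449 (Wnt2b) and 4.05 (Wnt3a) CPM per kilobase. Summed over all 19 ligands, the level was 104 and 119 CPM per kilobase in the Itch KO libraries and 149 and 137 in the WT libraries, so the groups did not overlap. The sum does not describe each ligand. Wnt3 and Wnt7b were lower in both Itch KO libraries, while the groups of Wnt10a, Wnt5a and Wnt11 overlapped.

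Wnt7b and Wnt3, ligands of the canonical branch that are made in hair follicle and epidermis, were the abundant ligands with the lower level in Itch KO skin. Wnt7b (ENSMUSG00000022382, GRCm38 chromosome 15, 85535437 to 85582473, minus strand) had 50.02 and 48.5 CPM in the Itch KO libraries, against 135 and 82.2 CPM in the WT libraries. Both Itch KO libraries lay below both WT libraries, with a log2 fold change of -1.14 (SE 0.28) and an adjusted p of 0.139 in edgeR, or 0.00973 in DESeq2. The fold change was -0.74 without WT replicate 1 and -1.46 without WT replicate 2. Wnt3 had 28.0 and 35.8 CPM in the Itch KO libraries, against 102 and 55.4 CPM in the WT libraries. Its groups did not overlap either, although the WT libraries were far apart, and the log2 fold change was -1.30 (SE 0.36) with edgeR adjusted p = 0.156. Without WT replicate 1 it was -0.80, and without WT replicate 2 it was -1.68.

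Wnt16, a ligand best known from bone, was lower too, at 7.01 and 5.99 CPM in the Itch KO libraries, against 30.3 and 11.3 CPM in the WT libraries (log2 fold change -1.68 (SE 0.54), edgeR adjusted p = 0.186). The log2 fold change was -0.80 without WT replicate 1. Wnt9a, known from joint formation, had the opposite direction, at 14.3 and 11.2 CPM in the Itch KO libraries, against 7.53 and 5.81 CPM in the WT libraries. It was the single tested ligand with both Itch KO libraries above both WT libraries (log2 fold change 0.93 (SE 0.31), edgeR adjusted p = 0.189), and the value was 1.13 without WT replicate 1. Canonical Wnt10b, Wnt6 and Wnt3a, with Wnt2b, had lower values in both Itch KO libraries than in both WT libraries. Wnt10b had 7.14 and 10 CPM in the Itch KO libraries, against 12.1 and 16.6 CPM in the WT libraries, and Wnt6 had 4.86 and 6.69 CPM in the Itch KO libraries, against 9.20 and 9.09 CPM in the WT libraries. Their log2 fold changes of -0.75 and -0.66 had edgeR adjusted p-values of 0.261 and 0.285.

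Of the ligands with the highest levels per length, Wnt4 and Wnt10a had log2 fold changes near 0. Wnt4 had 137 and 141 CPM in the Itch KO libraries, against 146 and 157 CPM in the WT libraries, and its log2 fold change was -0.12 (SE 0.14). The groups did not overlap but lay close together, and edgeR gave adjusted p = 0.626. Wnt10a had 44.7 and 60.7 CPM in the Itch KO libraries, against 46.8 and 53.8 CPM in the WT libraries, with overlapping groups and a log2 fold change of 0.07 (SE 0.22). Wnt5b overlapped as well, at 8.27 and 11.0 CPM in the Itch KO libraries, against 7.67 and 11.4 CPM in the WT libraries.

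The non-canonical ligands Wnt5a and Wnt11 had their lowest value in WT replicate 1. Wnt5a, which dermal papilla cells make, had 68.1 and 66.3 CPM in the Itch KO libraries, against 28.1 and 70.4 CPM in the WT libraries. WT replicate 2 lay just above both Itch KO libraries. Wnt11 had 25.9 and 47.1 CPM in the Itch KO libraries, against 6.13 and 42.9 CPM in the WT libraries, which placed WT replicate 2 between the Itch KO libraries. Their log2 fold changes of 0.45 and 0.57 were -0.07 and -0.23 without WT replicate 1. Wnt2 had its highest value in that library, with 1.83 and 1.27 CPM in the Itch KO libraries, 5.73 CPM in WT replicate 1 and 0.947 CPM in WT replicate 2.

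The ligands that were not tested had few counts, and the floor of 3 counts was worth between 0.189 and 0.200 CPM. Wnt7a, known from limb and reproductive tract patterning, stood at 0.442 and 0.191 CPM in the Itch KO libraries and 1.47 and 0.505 CPM in the WT libraries. Wnt9b had 12 and 5 counts in the Itch KO libraries and 7 and 2 in the WT libraries, and Wnt8a had 4 and 5 counts in the Itch KO libraries and 1 and 5 in the WT libraries. Wnt1 had 0 and 0 counts in the Itch KO libraries and 1 and 2 in the WT libraries, and Wnt8b had a single read in Itch KO replicate 2. No difference in these genes was tested.

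Several Wnt genes lie side by side in the mouse genome, and the directions of neighbouring genes are given side by side. On GRCm38 chromosome 11, Wnt3a (59248033 to 59290752, minus strand) and Wnt9a (59306928 to 59333552, plus strand) are 16.2 kb apart and face away from each other. Wnt9a was higher in both Itch KO libraries, whereas Wnt3a had 10.2 and 8.09 CPM in the Itch KO libraries against 14.9 and 11.5 CPM in the WT libraries. Wnt9b (103727364 to 103749821, minus strand) and Wnt3 (103774150 to 103817957, plus strand) lie 24.3 kb apart on the same chromosome in the same arrangement, and Wnt9b, with 0.758 and 0.319 CPM in the Itch KO libraries against 0.467 and 0.126 CPM in the WT libraries, lay below Wnt3 throughout. On chromosome 1, Wnt6 (74771892 to 74785322) and Wnt10a (74791516 to 74804179) follow each other on the plus strand with 6.19 kb between them, and Wnt10a lay above Wnt6, which had 2.22 and 3.05 CPM per kilobase in the Itch KO libraries and 4.20 and 4.15 in the WT libraries. On chromosome 15, Wnt10b (98770712 to 98778150, minus strand) and Wnt1 (98789857 to 98793837, plus strand) lie 11.7 kb apart, and Wnt10b was the one of the pair with counts high enough to be tested.

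**Figure D2:**
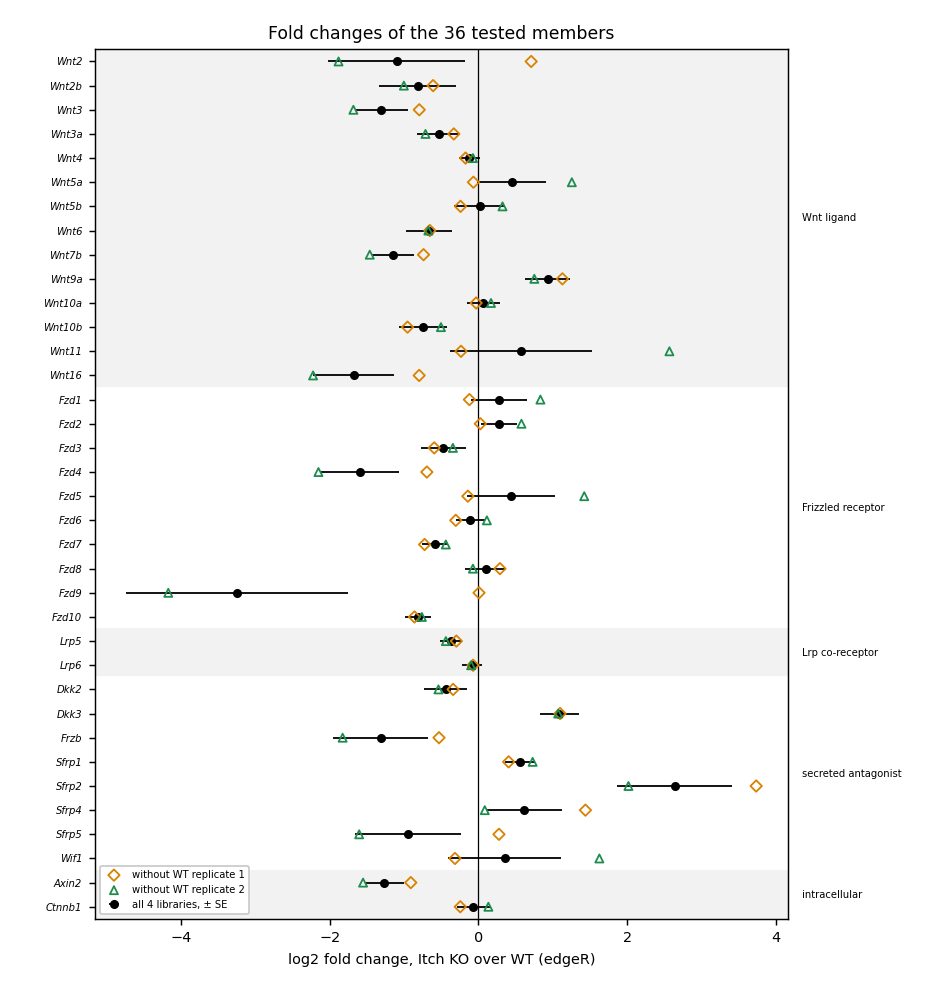
Log2 fold change of Itch KO over WT for the 36 tested members, by role, with SE from edgeR (black). Open diamonds leave out WT replicate 1 and open triangles leave out WT replicate 2; for Wnt11, Fzd9 and Sfrp5 the open symbols lie on both sides of 0 or at it, while for Wnt6, Fzd10 and Dkk3 they stay close to the black point.

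Among the receptors, Fzd1, Fzd6, Fzd10 and Fzd7 had the highest mean levels per length, with means of 33.03, 22.7, 22.4 and 19.6 CPM per kilobase over the 4 libraries. Their order differed between libraries: Fzd10 had 14.7 and 17.8 CPM per kilobase in the Itch KO libraries and 27.5 and 29.5 in the WT libraries, above Fzd6 in the WT libraries only, since Fzd6 had 21.9 and 21.8 in the Itch KO libraries and 20.2 and 27.0 in the WT libraries. Fzd10 and Fzd7 were lower in both Itch KO libraries. Fzd10 (ENSMUSG00000081683, chromosome 5, 128600844 to 128604093, plus strand) had 47.7 and 58.0 CPM in the Itch KO libraries, against 89.4 and 95.9 CPM in the WT libraries. The groups were well apart, the log2 fold change was -0.81 (SE 0.17), and the adjusted p was 0.115 in edgeR and 0.00859 in DESeq2. Leaving out WT replicate 1 gave -0.86. Fzd7, a receptor of stem cells in several tissues, had 67.5 and 74.8 CPM in the Itch KO libraries, against 96.3 and 118 CPM in the WT libraries. Its groups did not overlap, with a log2 fold change of -0.59 (SE 0.18), edgeR adjusted p = 0.171 and DESeq2 adjusted p = 0.0948. The fold change was -0.72 without WT replicate 1.

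Fzd4, the receptor of Norrin in blood vessels, had 22.5 and 19.1 CPM in the Itch KO libraries, against 92.3 and 33.6 CPM in the WT libraries. The 2 WT values differed 2.74-fold, and the log2 fold change of -1.60 (SE 0.53) was -0.69 without WT replicate 1 (edgeR adjusted p = 0.194 with all libraries). The 8 endothelial markers summed to 436 and 374 CPM in the Itch KO libraries and 387 and 168 CPM in the WT libraries, with overlapping groups and none at 0. Of the 8, 4 had both Itch KO libraries above both WT libraries and 0 had both below, beside 31.2% and 30% of all tested genes. The part of endothelial cells in the Fzd4 level was not tested. Fzd9 was highest in WT replicate 1, with 0.316, 0.701 and 0.505 CPM in Itch KO replicate 1, Itch KO replicate 2 and WT replicate 2 but 9.27 CPM in WT replicate 1. Its log2 fold change of -3.24 (SE 1.49) was 0.01 without that library. Fzd3, which guides axons, had lower values in both Itch KO libraries, with 7.01 and 9.62 CPM in the Itch KO libraries, against 10.5 and 12.6 CPM in the WT libraries (edgeR adjusted p = 0.392).

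The other Frizzled genes overlapped between the groups. Fzd6, which orients hairs on the skin of mice, had 106 and 105 CPM in the Itch KO libraries, against 97.2 and 130.2 CPM in the WT libraries. Fzd1 had 131 and 173 CPM in the Itch KO libraries, against 85.1 and 165 CPM in the WT libraries, and Fzd2 had 52.6 and 58.3 CPM in the Itch KO libraries, against 37.1 and 54.5 CPM in the WT libraries. In both the lowest value was that of WT replicate 1. Fzd5 showed the same order more strongly, with 38.1 and 60.1 CPM in the Itch KO libraries, 18.3 CPM in WT replicate 1 and 54.2 CPM in WT replicate 2. Fzd8 stood between 8.46 and 10.9 CPM in all libraries. Summed over the 10 receptors, the level was 108 and 128 CPM per kilobase in the Itch KO libraries and 122 and 152 in the WT libraries, which overlapped.

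The co-receptors Lrp5 and Lrp6, which pair with Frizzled proteins in the canonical branch, had small log2 fold changes. Lrp5 had 111 and 109.7 CPM in the Itch KO libraries, against 149 and 135 CPM in the WT libraries. The groups were apart, with a log2 fold change of -0.37 (SE 0.14) and edgeR adjusted p = 0.232. Lrp6 was nearly level at 127 and 132 CPM in the Itch KO libraries and 138 and 136 CPM in the WT libraries, with a log2 fold change of -0.08 (SE 0.14). The log2 fold change of Ctnnb1, the transducer beta-catenin, was -0.07 (SE 0.22), from 599 and 710.4 CPM in the Itch KO libraries, against 596 and 776 CPM in the WT libraries, and its groups overlapped. Ctnnb1 was the member with the highest level per length, at a mean of 129 CPM per kilobase.

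The secreted antagonists had a higher summed level in both Itch KO libraries. Of the 8 tested, 4 had both Itch KO libraries above both WT libraries (Sfrp1, Sfrp2, Sfrp4 and Dkk3) and 2 had both below (Dkk2 and Frzb), beside 31.2% and 30% of all tested genes. Summed over all 10 antagonists, the level was 159 and 122 CPM per kilobase in the Itch KO libraries and 74.9 and 85.2 in the WT libraries. The groups did not overlap, and Sfrp1, Sfrp2 and Dkk3 made up most of the sum in the Itch KO libraries.

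Sfrp2, a Wnt-binding protein made by dermal fibroblasts, had the largest positive log2 fold change of the tested members. The gene (ENSMUSG00000027996, chromosome 3, 83766321 to 83774316, plus strand) stood at 84.2 and 35.4 CPM in the Itch KO libraries, against 14.7 and 4.48 CPM in the WT libraries. Every library of a group was on its own side, but the libraries within each group also differed over 2-fold. The log2 fold change was 2.64 (SE 0.77), with an adjusted p of 0.170 in edgeR and 0.00252 in DESeq2. It was 3.74 without WT replicate 1 and 2.02 without WT replicate 2. Dkk3, a divergent member of the Dkk family that is not known to block the Lrp co-receptors as Dkk1 does, had 155 and 99.0 CPM in the Itch KO libraries, against 60.3 and 59.3 CPM in the WT libraries. The gene lies on chromosome 7, 112116017 to 112159057, minus strand. The WT libraries were nearly equal, the log2 fold change was 1.09 (SE 0.26), and the adjusted p was 0.133 in edgeR and 0.0111 in DESeq2. The value was 1.10 without WT replicate 1, 0.71 without Itch KO replicate 1 and 1.37 without Itch KO replicate 2.

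Sfrp1 was the most abundant antagonist per length, at 56.1 and 46.1 CPM per kilobase in the Itch KO libraries and 30.8 and 38.6 in the WT libraries. In CPM it had 245 and 202 in the Itch KO libraries, beside 135 and 169 in the WT libraries (log2 fold change 0.56 (SE 0.20), edgeR adjusted p = 0.210). Without WT replicate 1 the log2 fold change was 0.41. The groups of Sfrp4 barely separated, with Itch KO replicate 2 and WT replicate 1 nearly equal: it had 12.1 and 10.8 CPM in the Itch KO libraries, 10.8 CPM in WT replicate 1 and 4.23 CPM in WT replicate 2. Its log2 fold change of 0.61 was 1.44 without WT replicate 1. Sfrp5 and Frzb were highest in WT replicate 1. Sfrp5 had 2.65 and 3.31 CPM in the Itch KO libraries against 9.07 and 2.46 CPM in the WT libraries, and Frzb had 1.20 and 2.29 CPM in the Itch KO libraries, against 6.20 and 2.52 CPM in the WT libraries. The log2 fold change of Frzb, -1.32 with all libraries, was -0.53 without WT replicate 1. Wif1, which binds Wnt ligands directly, was lowest in WT replicate 1, with 24.1 and 50.1 CPM in the Itch KO libraries, against 12 and 46.2 CPM in the WT libraries. Dkk2 had 10.7 and 15.5 CPM in the Itch KO libraries, against 19 and 16.6 CPM in the WT libraries (edgeR adjusted p = 0.395). Dkk1 and Dkk4, which block the Lrp co-receptors, had at most 6 reads in any library, so a difference was not detectable.

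Fibroblast markers were higher in both Itch KO libraries, as Sfrp2 and Dkk3 were. The 8 fibroblast genes summed to 13491 and 12252 CPM in the Itch KO libraries and 1788 and 3167 CPM in the WT libraries, none at 0. Of the 8, 7 had both Itch KO libraries above both WT libraries, beside 31.2% of all tested genes. Macrophage and neutrophil markers did so in 9 of 9 genes, summing to 2949 and 1865 CPM in the Itch KO libraries and 178 and 180.1 CPM in the WT libraries, with none at 0. The part of either cell type in these antagonist levels was not tested. In whole skin, a different number of cells of a type and a different amount of RNA per cell cannot be told apart.

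Axin2, a scaffold of the beta-catenin destruction complex whose transcription follows canonical Wnt signalling, was lower in Itch KO skin. The gene (ENSMUSG00000000142, chromosome 11, 108920349 to 108950783, plus strand) had 29.0 and 31.2 CPM in the Itch KO libraries, against 88.0 and 56.5 CPM in the WT libraries. The 2 Itch KO libraries were close to each other and well below both WT libraries. The log2 fold change was -1.26 (SE 0.27), with an adjusted p of 0.114 in edgeR and 0.00234 in DESeq2. It was -0.91 without WT replicate 1 and -1.55 without WT replicate 2, with edgeR adjusted p-values of 0.0398 and 0.00272 in fits where the spread came from the Itch KO libraries alone. The 8 follicle bulge markers, none at 0, summed to 1124 and 1118 CPM in the Itch KO libraries and 2762 and 1830.3 CPM in the WT libraries. Krt15, a keratin of bulge and basal layer, made up the difference with 582 and 625 CPM in the Itch KO libraries, against 2250.0 and 1322 CPM in the WT libraries. Without Krt15, which was singled out after its values were seen, the other 7 summed to 541 and 493 CPM in the Itch KO libraries and 512 and 508 CPM in the WT libraries. In this list 3 of 8 genes had both Itch KO libraries below both WT libraries and 0 had both above. Over all tested genes the shares were 30% below and 31.2% above. The part of these cells in the Axin2 level was not tested. The 8 basal and suprabasal keratinocyte markers summed to 12805 and 14894 CPM in the Itch KO libraries and 14028 and 15362 CPM in the WT libraries, with overlapping groups. Of these 8 markers, 4 had both Itch KO libraries below both WT libraries and 1, Krt14, had both above, beside the same 30% and 31.2%. Krt14 stood at 2979 and 3475 CPM in the Itch KO libraries, against 1617 and 1888 CPM in the WT libraries.

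**Figure D3:**
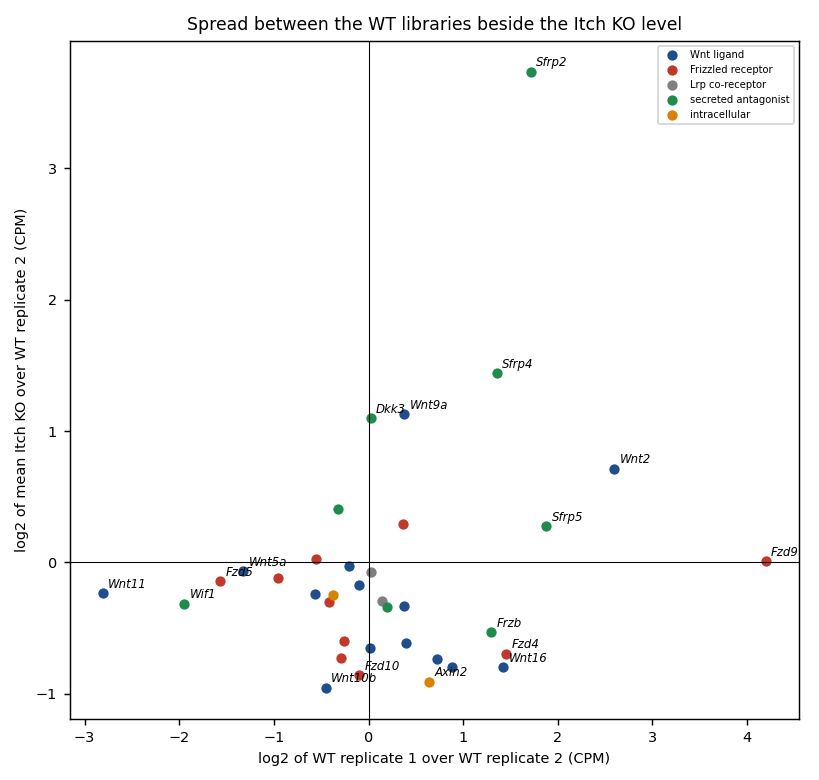
For each tested member, log2 of WT replicate 1 over WT replicate 2 (horizontal) against log2 of the mean Itch KO level over WT replicate 2 (vertical), coloured by role. Fzd9, Wnt2 and Wnt11 lie far out along the horizontal axis and between -1 and 1 on the vertical axis, whereas Sfrp2, Sfrp4, Dkk3 and Wnt9a stand above 1 on the vertical axis and Axin2 near -1.

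WT replicate 1 and WT replicate 2 differed over 2-fold for 12 of the 36 tested members, beside 19% of all tested genes, and the Itch KO libraries for 4, beside 6.29%. The 8 higher in WT replicate 1 were Frzb, Fzd4, Fzd9, Sfrp2, Sfrp4, Sfrp5, Wnt16 and Wnt2, beside 10.5% of all tested genes. The 4 lower there were Fzd5, Wif1, Wnt5a and Wnt11, beside 8.42%. The largest gaps were 18.4-fold for Fzd9 and 7.0-fold for Wnt11. WT replicate 2 was nearer than WT replicate 1 to the Itch KO mean on log2(CPM + 1) for 24 of the 36, beside 69.9% of all tested genes.

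Markers of the growing hair follicle and of muscle differed in the same library. The 9 anagen matrix genes summed to 699 and 1067 CPM in the Itch KO libraries, to 172 CPM in WT replicate 1 and to 994 CPM in WT replicate 2, and the 5 melanocyte genes to 161 and 383 CPM in the Itch KO libraries, 38.0 CPM in WT replicate 1 and 537 CPM in WT replicate 2. Lef1, the Wnt-responsive factor of hair matrix and dermal papilla, had 20.2 and 39.5 CPM in the Itch KO libraries, 1.67 CPM in WT replicate 1 and 36.1 CPM in WT replicate 2. Fzd5, Wif1, Wnt5a and Wnt11 were lowest in WT replicate 1, where these lists were lowest too. Fzd9, Wnt2, Sfrp5 and Frzb were highest in WT replicate 1. So were Axin2, Wnt3, Wnt7b, Wnt16 and Fzd4, which were lower in both Itch KO libraries. Fzd7 and Fzd10 were highest in WT replicate 2. The muscle genes were highest in WT replicate 1 too, as were the adipocyte, the smooth muscle and pericyte, and the follicle bulge lists. The adipocyte genes summed to 3153 CPM there, against 1613 CPM in WT replicate 2 and 2280 and 2043 CPM in the Itch KO libraries. Muscle markers were above 0 in WT replicate 1 throughout, and 1 of the 10, Tnnc2, was at 0 in WT replicate 2. The part of hair growth stage, of muscle or of these other cell types in these members was not tested.

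**Figure D4:**
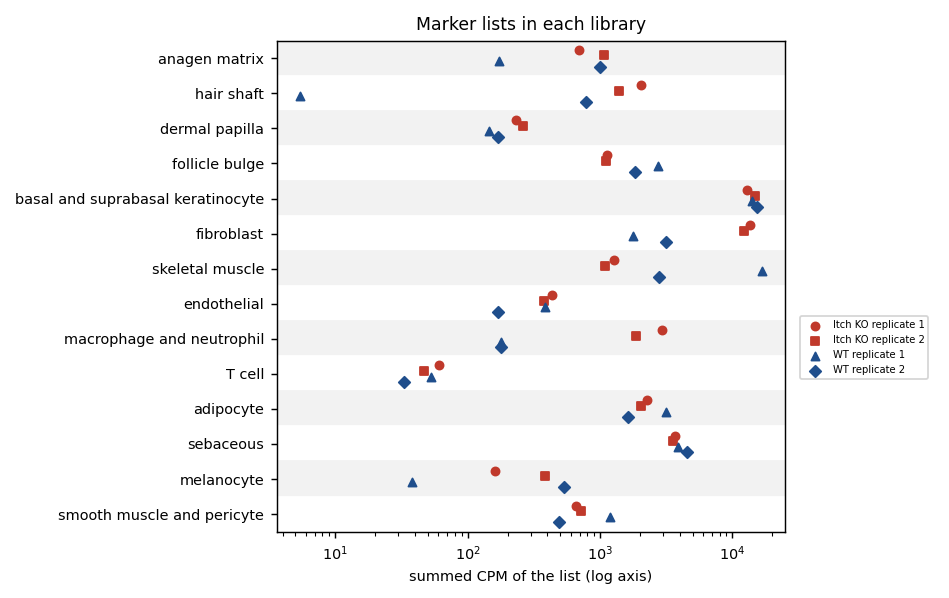
Summed CPM of each marker list in each library, on a logarithmic axis, with Itch KO libraries in red and WT libraries in blue. WT replicate 1 is lowest for hair shaft, anagen matrix and melanocyte genes and highest for skeletal muscle, and both Itch KO libraries are highest for fibroblast and for macrophage and neutrophil genes.

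Other genes of the pathway, 76 in 7 lists, were read in the same fit, and 75 of them could be tested. None passed an adjusted p of 0.05 in edgeR. At an unadjusted p under 0.05, 17 were lower in the Itch KO libraries, beside 10.9% of all tested genes, and 4 were higher, beside 12% of them. DESeq2 called 13 as lower, beside 6.07% of all tested genes, and 3 as higher, beside 7.83%. limma-voom gave 20 of them an unadjusted p under 0.05, with no share of all tested genes taken to set beside it. The median log2 fold change over the 75 was -0.09.

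Genes around R-spondin, a secreted enhancer of Wnt signalling, were among the lower ones: 4 of 9 were lower by that measure, beside 10.9% of all tested genes, and 0 were higher. Lgr6, an R-spondin receptor that marks stem cells of the upper hair follicle, had 3.09 and 4.59 CPM in the Itch KO libraries, against 51.8 and 21.2 CPM in the WT libraries. The groups were far apart, with a log2 fold change of -3.25 (SE 0.56), edgeR adjusted p = 0.0884 and -2.46 without WT replicate 1. Its relative Lgr5, which marks lower bulge and hair germ, overlapped at 21.0 and 35.8 CPM in the Itch KO libraries, against 23.7 and 40.6 CPM in the WT libraries. Rspo3 had 3.16 and 4.84 CPM in the Itch KO libraries, against 15.2 and 10.2 CPM in the WT libraries (log2 fold change -1.66 (SE 0.40), or -1.34 without WT replicate 1), while Rspo1 overlapped at 8.97 and 11.3 CPM in the Itch KO libraries, against 5.33 and 13.3 CPM in the WT libraries. Znrf3 and Rnf43, ubiquitin ligases that remove Frizzled receptors and are themselves Wnt feedback genes, were both lower. Znrf3 had 21.8 and 22.2 CPM in the Itch KO libraries, against 39.5 and 38.6 CPM in the WT libraries (log2 fold change -0.83 (SE 0.17), edgeR adjusted p = 0.111). Rnf43 had 18.7 and 22.6 CPM in the Itch KO libraries, against 39.7 and 33.9 CPM in the WT libraries (log2 fold change -0.84 (SE 0.21), edgeR adjusted p = 0.142).

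Of 10 other tested antagonists and modulators at the membrane or outside the cell, an unadjusted p under 0.05 went with a lower level for 5 and a higher level for 1, beside 10.9% and 12% of all tested genes. Tnfrsf19, a receptor known as a Wnt target in hair follicles, had 92.9 and 99.0 CPM in the Itch KO libraries, against 282 and 215 CPM in the WT libraries (log2 fold change -1.37 (SE 0.20), or -1.16 without WT replicate 1, edgeR adjusted p = 0.0750 with all libraries). Dkkl1, a Dkk-related protein, had 45.8 and 42.6 CPM in the Itch KO libraries, against 126 and 97.3 CPM in the WT libraries (log2 fold change -1.34 (SE 0.19)). Kremen1, which works with Dkk proteins against Lrp6, had 122 and 128 CPM in the Itch KO libraries, against 205 and 186 CPM in the WT libraries (log2 fold change -0.65 (SE 0.15)). All of these had both Itch KO libraries below both WT libraries. Draxin, a Wnt antagonist known from axon guidance, was the higher one, at 12.2 and 9.75 CPM in the Itch KO libraries, against 0.400 and 2.27 CPM in the WT libraries (log2 fold change 3.02 (SE 0.84), edgeR adjusted p = 0.158). The log2 fold change was 2.27 without WT replicate 1 and 4.75 without WT replicate 2.

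In the planar polarity and non-canonical list, an unadjusted p under 0.05 was found for 3 of 14 genes, of which 2 were lower and 1 higher. That is 21.4% of the list, beside 22.8% of all tested genes. Cthrc1, a secreted protein of wound fibroblasts that binds Wnt and Frizzled proteins, had 74.3 and 60.6 CPM in the Itch KO libraries, against 1.8 and 5.30 CPM in the WT libraries. This was the largest log2 fold change in any of the lists, 4.24 (SE 0.59), with edgeR adjusted p = 0.0745 and 3.67 without WT replicate 1. Celsr1, a polarity cadherin of the epidermis, had 86.8 and 90.7 CPM in the Itch KO libraries, against 167 and 138 CPM in the WT libraries (log2 fold change -0.78 (SE 0.17)). The formin Daam1, which links Dishevelled to actin, had 114 and 121 CPM in the Itch KO libraries, against 219.9 and 177 CPM in the WT libraries (log2 fold change -0.76 (SE 0.18)). Prickle1 had 31.6 and 34.6 CPM in the Itch KO libraries, against 25.3 and 25.4 CPM in the WT libraries, with edgeR adjusted p = 0.277.

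The cytoplasmic list had an unadjusted p under 0.05 for 4 of 16 genes, each lower in both Itch KO libraries. That is 25% of the list, near the 22.8% of all tested genes. These were Tnks, a tankyrase that marks Axin proteins for destruction, the Dishevelled genes Dvl1 and Dvl3, and Apc, a scaffold of the destruction complex. Tnks had 17.2 and 13.1 CPM in the Itch KO libraries, against 37.1 and 27.3 CPM in the WT libraries, and Dvl3 had 16.7 and 15.1 CPM in the Itch KO libraries, against 35.2 and 26.0 CPM in the WT libraries. Their log2 fold changes were -1.09 (SE 0.27) and -0.94 (SE 0.24), with edgeR adjusted p-values of 0.141 and 0.145. Dvl1 had 87.6 and 82.6 CPM in the Itch KO libraries, against 160.4 and 117 CPM in the WT libraries, and Apc had 65.7 and 59.4 CPM in the Itch KO libraries, against 105 and 78.5 CPM in the WT libraries.

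In the nuclear list 2 of 13 genes had an unadjusted p under 0.05, which is 15.4%, beside 22.8% of all tested genes. Both were lower, and both encode co-activators of beta-catenin. Bcl9l had 55.6 and 47.5 CPM in the Itch KO libraries, against 110.1 and 80.6 CPM in the WT libraries (log2 fold change -0.89 (SE 0.22), edgeR adjusted p = 0.140), and Pygo1 had 9.22 and 7.2 CPM in the Itch KO libraries, against 30.4 and 12.9 CPM in the WT libraries (log2 fold change -1.40 (SE 0.49), or -0.66 without WT replicate 1). Bcl9 had 20.8 and 16.1 CPM in the Itch KO libraries, against 33.1 and 24.2 CPM in the WT libraries, and the co-repressor gene Tle1 had 37.5 and 43.2 CPM in the Itch KO libraries, against 27.9 and 34.5 CPM in the WT libraries.

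In the feedback and target list an unadjusted p under 0.05 was found for 2 of 9 genes, both higher, which is 22.2% of the list, beside 22.8% of all tested genes. Cd44, a hyaluronan receptor that leukocytes and fibroblasts also make, had 503 and 445 CPM in the Itch KO libraries, against 189.7 and 311 CPM in the WT libraries (log2 fold change 0.92 (SE 0.29), or 0.61 without WT replicate 1, edgeR adjusted p = 0.182 with all libraries). Dact3, an inhibitor of Dishevelled, had 14.3 and 12.4 CPM in the Itch KO libraries, against 6.4 and 6.82 CPM in the WT libraries (log2 fold change 1.01 (SE 0.26), edgeR adjusted p = 0.144). Its relative Dact1 had 9.47 and 10.6 CPM in the Itch KO libraries, against 5.47 and 2.15 CPM in the WT libraries (log2 fold change 1.40, or 2.22 without WT replicate 1), and Myc had 74.3 and 98.6 CPM in the Itch KO libraries, against 61.0 and 77.3 CPM in the WT libraries with overlapping groups.

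For release of Wnt ligands, 0 of 4 genes had an unadjusted p under 0.05, beside 22.8% of all tested genes. Wls, which carries Wnt proteins to the cell surface, was nearly level at 195 and 194 CPM in the Itch KO libraries and 206 and 206 CPM in the WT libraries. Porcn, the X-linked enzyme that attaches the lipid, had 35.7 and 33 CPM in the Itch KO libraries, against 10.8 and 24.2 CPM in the WT libraries, with edgeR adjusted p = 0.267. Notum, which removes the lipid, had 2.40 and 5.61 CPM in the Itch KO libraries, against 5.80 and 6.00 CPM in the WT libraries, and Trabd2b, a protease that inactivates Wnt proteins, had 28.4 and 28.4 CPM in the Itch KO libraries, against 43.6 and 31.9 CPM in the WT libraries.

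**Figure D5:**
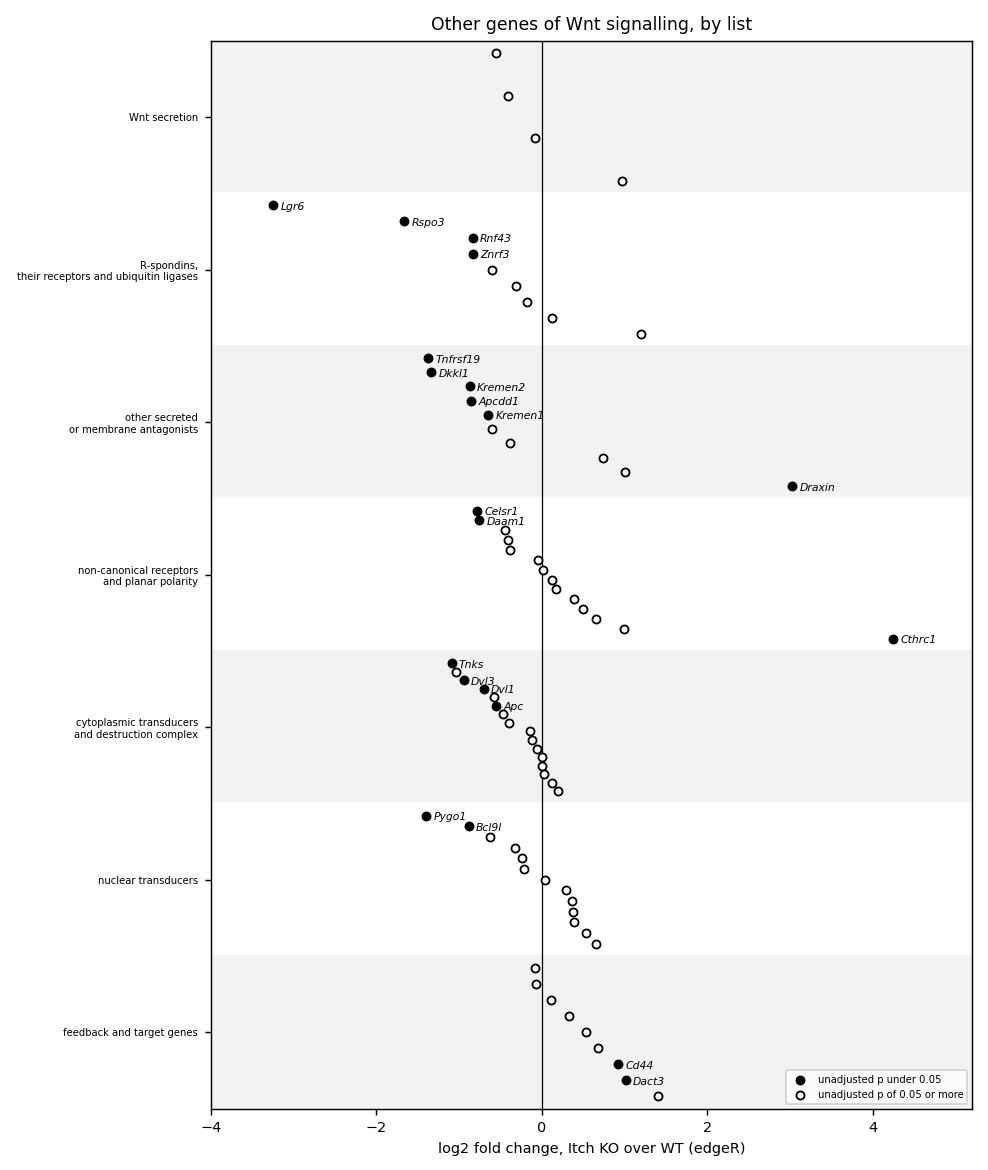
Log2 fold change of Itch KO over WT for the 75 tested genes of the 7 other pathway lists, sorted within each list. Filled and named points have an unadjusted p under 0.05; 17 of them lie left of 0 and 4 right of it, with Cthrc1 at 4.24 and Lgr6 at -3.25 the farthest out.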

How the data were processed

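The authors deposited raw read counts per Ensembl gene, 1 table for each library. The submitters' processing notes name HTSeq 0.6.1, TopHat2, CASAVA 1.8.2 and SAMtools 0.1.19, with mm10 (GRCm38). The annotation release, strand setting and read filters were not given in the sources used here. Without strand, reads of an overlapping opposite-strand gene cannot be told apart. Of the members, 8 share 3.15% to 17.8% of their exon length with such genes, which had at most 42 reads where counted.

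Symbols, coordinates and exon lengths were taken from GENCODE vM21 (37693 of 39179 identifiers matched). The HTSeq counter lines stayed out of library sizes: reads without a feature made up 5.68% to 7.45% of counted reads and ambiguous reads 4.48% to 4.70%. Counts were fitted in R 4.3.3 with edgeR 4.0.16 (filterByExpr with a minimum count of 10, TMM, quasi-likelihood F test with legacy and robust settings, two-sided, Benjamini-Hochberg adjustment over all 16651 tested genes). The biological coefficient of variation was 0.341. DESeq2 1.42.0 and limma 3.58.1 (voom) were alternatives, as were other scalings, filters, a replicate block, and leaving out each library. The procedure was also run on simulated counts that held no outlying library, and no result here rests on that run. CPM used TMM-scaled library sizes, and CPM per kilobase divided by the union of exons. A count of 0 was read against a floor of 3 counts per library, which covers counting error only. Replicates were not copies of one library: chi-square per degree of freedom between them was 23.5 in Itch KO and 109 in WT.

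All members were named. Of the other pathway lists, up to 4 genes with the smallest p and a mean of 1 CPM or more were named, with Lef1, Lgr5, Rspo1 and Notum. The members and lists were chosen with earlier results of these data known. Promoter windows are those of RefSeq, and the 4 printed were chosen after values were seen.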

Additional observations from a re-analysis of the deposited data

How the results depend on the processing

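The number of genes called at an adjusted p of 0.05 in edgeR, 1 over all genes, was 488 with no filter on low counts, 2314 in DESeq2, and 0 each in limma-voom, without X and Y genes and with the replicate block, and ran from 0 to 5249 when 1 library was left out. Called members numbered 8 in DESeq2 and ran from 0 to 15 with a library left out: 3 without WT replicate 1 (Axin2, Fzd10 and Wnt7b), 15 without WT replicate 2 and 0 without either Itch KO library. The 11 members at an unadjusted p under 0.05 became 1 to 21, with 1 (Axin2) without Itch KO replicate 1, 4 without Itch KO replicate 2, 12 without WT replicate 1 and 21 without WT replicate 2. The 22 members with separate groups became 24 to 35, which fewer libraries allow, and the 21 other pathway genes at an unadjusted p under 0.05 became 6 to 43. In such fits the spread comes from fewer libraries and the lone library is assumed to vary like the others.

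With the replicate number as a block, 11 members and 25 other pathway genes had an unadjusted p under 0.05. Same-numbered libraries share only a number, and their deviations from the group means correlated at 0.19. Over the other scalings and filters the count of members with an unadjusted p under 0.05 was 10 or 11, with 12 in DESeq2 and 9 in limma-voom. For the block and these settings no share of all tested genes was taken. The counts show only how far the number moved. Of the 36 tested members, 23 kept their direction in every setting and 13 did not. With a library left out, the log2 fold changes that changed sign ran from -0.12 to 0.83 for Fzd1, -0.14 to 1.42 for Fzd5, -0.30 to 0.11 for Fzd6, -0.074 to 0.29 for Fzd8, -4.17 to 0.0081 for Fzd9, -0.17 to 0.25 for Wnt10a, -0.23 to 2.57 for Wnt11, -1.88 to 0.71 for Wnt2, -0.067 to 1.26 for Wnt5a, -0.24 to 0.32 for Wnt5b, -0.24 to 0.13 for Ctnnb1, -1.60 to 0.28 for Sfrp5, -0.32 to 1.63 for Wif1, -0.38 to 0.93 for Rspo1, -0.62 to 0.26 for Lgr5 and -0.27 to 4.15 for Lef1. Wnt5b also changed sign with library size alone, at -0.025. The cause was not tested.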

Other observations

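The balance of secreted antagonists and ligands was compared after the values were seen, with no test. The summed level of the 10 antagonists over that of the 19 ligands, both in CPM per kilobase, was 1.53 and 1.03 in the Itch KO libraries and 0.503 and 0.624 in the WT libraries. Both Itch KO libraries stayed above both WT libraries whichever single antagonist was left out of the sum. Each such sum still held others of Sfrp1, Sfrp2 and Dkk3, so it cannot show whether the ratio depends on these genes together. Antagonists from the other pathway lists, several of them lower in the Itch KO libraries, were not in the sum. Without Sfrp1 the ratios were 0.991 and 0.641 in the Itch KO libraries against 0.297 and 0.342 in the WT libraries, and without Dkk3 they were 1.09 and 0.781 in the Itch KO libraries against 0.383 and 0.495 in the WT libraries. These are mRNA sums over whole skin and say nothing of protein or of which cells hold either side.

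Some genes known to follow canonical Wnt signalling are given side by side, with no test of them as a group. Axin2, Znrf3, Rnf43 and Tnfrsf19 had both Itch KO libraries below both WT libraries, as did 30% of all tested genes. In the feedback and target list, the genes with separate groups lay on the other side. Of its 9 genes, 4 (Dact1, Dact3, Cd44 and Sp5) had both Itch KO libraries above both WT libraries and 0 had both below. Over all tested genes the shares were 31.2% and 30%. The other 5, Nkd1, Nkd2, Dact2, Ccnd1 and Myc, overlapped. By unadjusted p under 0.05 in edgeR the list was near all tested genes, at 22.2% beside 22.8%. Nkd1 had 12.6 and 18.1 CPM in the Itch KO libraries against 7.0 and 14.3 CPM in the WT libraries, and Nkd2 had 52.0 and 68.9 CPM in the Itch KO libraries, against 32.3 and 94.5 CPM in the WT libraries. Sp5 had 0.758 and 0.701 CPM in the Itch KO libraries, against 0.267 and 0.631 CPM in the WT libraries, from few reads, and in none of Nkd1, Nkd2 and Sp5 was the unadjusted p in edgeR under 0.05. Apcdd1, a membrane inhibitor of Wnt signalling in the hair follicle, had 91.5 and 130.3 CPM in the Itch KO libraries, against 218 and 182 CPM in the WT libraries, and a log2 fold change of -0.85 (SE 0.24). Nkd1, Nkd2, Sp5 and Apcdd1 were picked after their values were seen, and Znrf3, Rnf43 and Tnfrsf19 had been named for a small p.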
